A study of Mus musculus with 16 samples.

Results

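Gene expression was compared between wild-type (WT) embryoid bodies at EB5 and at EB8, the later part of a retinoic acid (RA) treatment that drives embryonic stem (ES) cells towards neurons. Embryoid bodies are free-floating aggregates of ES cells. At EB5 they had gone through the first day of RA and at EB8 through the days that followed, and the submitters name the cells neural precursors at that point. The comparison rests on 4 of the 16 libraries of the series, 2 for WT EB5 and 2 for WT EB8, and takes in every gene, of which 16124 had enough reads to be tested. The WT lines carry the genotype Taf4+/+, and per the study 2 independent lines of each genotype were derived from blastocysts of a Taf4a heterozygous cross and grown on mouse fibroblast feeders. The mice of the cross were C57Bl6J. Other libraries entered at 3 points. WT EB4, aggregates before RA, gave the change over the first day. The EB5 and EB8 libraries labelled KO, from lines with the genotype Taf4-/-, gave the same stage change without the Taf4 subunit of the transcription factor TFIID. All 16 libraries, ES cells included, gave the estimate of spread.

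The 4 libraries held between 24409504 and 27685306 reads assigned to genes, and all values are read counts normalised by the authors. The libraries labelled WT replicate 1 stood apart from replicate 2 on chromosome 8. There the median gene lay 0.40 above its mean over the 16 libraries on the log2 scale in replicate 1, at EB5 and at EB8 alike, and 0.11 to 0.12 below it in replicate 2. With the 853 tested genes of that chromosome left out, 1646 genes were called between the stages, against 1683 with them. Of the other libraries, WT ES replicate 2, which bears only on the spread, stood at 0.47 on chromosome X, and the other WT libraries between -0.25 and -0.16. Samples with the same replicate number deviated together from EB4 to EB8 (correlation across genes 0.57 between EB5 and EB8), so values from a fit with the replicate as a block are given where they change a call. The gene-level count of Taf4a was 1778 and 1756 at WT EB5, 1591 and 1939.7 at WT EB8, and 2284 and 2002 at EB5 and 2341 and 1973 at EB8 in the KO libraries. Since the null allele lacks only some exons and these counts cover the whole gene, they do not check the genotype label. Whether the counting used strand is not stated, and the library kit does not mark it. Where exons of a gene overlap those of a gene on the other strand, their reads could thus be shared. Among the genes named below this holds for the pairs Nefm and Nefl, and Zic1 and Zic4, and for Aldh1l1, Axin2, Bmp4, Ccnd1, Col1a1, Dll1, Dll4, Dnmt3l, Esrp1, Evx1, Fgfr1, Foxb1, Gbx2, Gli1, Grin1, Hes5, Hoxa7, Hoxd3, Id4, Ina, Lin28a, Mtap2, Ncam1, Neurod1, Notch1, Nova2, Nr2f1, Pax5, Pax6, Pax8, Prdm12, Ptbp1, Ptf1a, Sall4, Shh, Slc2a1, Slc32a1, Srrm4, Syp and Syt4. Exons overlap a gene on the same strand in Hoxb7 with Hoxb8, Hoxd3 with Hoxd4, Neurod1 with Cerkl, and in Bhlhe23, Foxd3, Gria2, Hoxa9, Hoxb4, Onecut1 and Tfcp2l1 with a small RNA or an unnamed gene.

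The stage label was set against its markers. At EB8 the neural progenitor gene Pax6 had 5447 and 5317 normalised reads and Nes 12104 and 7454. Hes5 had 811 and 1101 and Fabp7 354 and 281. Neither Pax6 nor Nes was called between EB5 and EB8, so they do not set EB8 apart from EB5. Dcx, a marker of young neurons, had 10.4 and 12.1 counts at EB5 and 4946 and 6972 at EB8. Of the other neuron markers Tubb3, Mtap2 and Elavl3 rose and Stmn2 was not called. Pou5f1, which marks pluripotent cells, had 4186 and 1936 counts at EB5 and 193 and 260.5 at EB8. Markers of neural precursors and of neurons were thus both present at EB8.

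RA is a small lipid that neural tissue of the trunk and hindbrain receives from the neighbouring mesoderm. It is made from retinol by dehydrogenases of the Rdh and Aldh1a families, carried by the Crabp proteins, broken down by the Cyp26 enzymes, and read by the receptors Rara, Rarb and Rarg, which bind DNA with an Rxr partner. In the embryo it acts on Hox genes in their order along the chromosome, and in ES cell aggregates it favours neural over mesodermal and endodermal fates. Neurogenesis then runs from dividing neuroepithelial progenitors through cells that carry proneural factors to neurons that have left the cell cycle, while Notch ligands on the new neurons hold their neighbours as progenitors.

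Between EB5 and EB8, 938 of the 16124 tested genes rose and 745 fell (limma on log2(normalised count + 1), adjusted p below 0.05), which is 5.82% and 4.62% of the genes. The rises were the larger changes. Among the called genes 160 rose at least 16-fold and 22 fell as much, and 752 and 562 changed at least 2-fold. Over all tested genes the median log2 change was -3.73e-06, both EB8 libraries lay above both EB5 libraries in 28.6% of the genes and both lay below in 26.1%. Rescaling by the upper quartile gave 807 higher and 908 lower genes, and quantile normalisation 894 and 1004, so the share of rises among the calls depended on the scaling. With the replicate block on the WT embryoid bodies 1460 genes were higher and 1189 lower, 9.05% and 7.37% of the tested genes. The 1683 calls became 556 without EB5 replicate 1, 882 without EB8 replicate 1 and 683 without EB8 replicate 2, and 1203 without EB5 replicate 2. Of the 193 called genes named in the text, 86, 43, 63 and 81 lost their call without EB5 replicate 1, EB5 replicate 2, EB8 replicate 1 and EB8 replicate 2, and none changed direction.

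The 12 largest rises included an axon guidance receptor, neuronal transcription factors and a transmitter transporter. Robo3 (chr9:37223254-37240760, mm9), a receptor that lets commissural axons cross the midline, went from 5.65 and 2.20 normalised reads in the EB5 libraries to 3946 and 3243 in the EB8 libraries (log2 change 9.60 ± 0.69, standard error here and below, adjusted p = 2.45e-05). The zinc finger factor Myt1 went from 1.88 and 1.10 to 1413 and 1882 and its relative St18 from 0.941 and 0 to 716 and 727. Dcx, a microtubule-binding protein of migrating neurons, stood at 10.4 and 12.1 at EB5 and at 4946 and 6972 at EB8, a log2 change of 8.91 ± 0.86 (adjusted p = 1.06e-04). For each of these genes the lower EB8 library lay far above the higher EB5 library. The choice of the 12 genes required both EB8 libraries to lie above both EB5 libraries, so this adds no support. The proneural factor Neurog2 had 0 and 2.20 counts at EB5 and 831 and 553 at EB8, and Slc6a5, the glycine transporter of inhibitory neurons, 0.941 and 0 at EB5 and 277 and 556 at EB8.

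The other genes of this set were Ppp1r17, a regulator of protein phosphatases, Bhlhe23 and Nhlh1, both basic helix-loop-helix factors, Scrt2, a neuronal repressor of the Snail family, Fstl5 and the chemokine Cxcl15. Their log2 changes ran from 7.17 for Nhlh1 to 8.34 for Ppp1r17, with adjusted p-values between 8.57e-05 and 0.00178. Of Cxcl15, a chemokine known from lung, 1.88 and 3.29 counts were seen at EB5 and 619.6 and 742 at EB8. Several of these genes had almost no reads at EB5, where a fitted change depends on the added count of 1. Over both libraries of a stage the ratio of normalised reads was 1083 (95% interval 370.4 to 5256) for Myt1, 1424 (95% interval 255 to 56296) for St18, 683 (95% interval 189 to 5646) for Neurog2, 821 (95% interval 147 to 32463) for Slc6a5 and 494 (95% interval 88.3 to 19559.6) for Fstl5, each with an exact interval for counting error only. Ppp1r17 had no read at EB5 and was at least 213-fold higher at EB8, taking 3 reads over the group as the floor.

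The 12 largest falls included 4 genes of the Nodal pathway. Nodal (chr10:60880720-60888086, mm9), a TGF-beta family signal of the early embryo, went from 1264 and 1172 at EB5 to 33.6 and 65.6 at EB8 (log2 change -4.66 ± 0.31, adjusted p = 2.30e-05). Its inhibitors Lefty1 and Lefty2, which are neighbours on chromosome 1, went from 3584 and 1629.6 to 11.6 and 30.7 and from 1512 and 1546 to 5.25 and 25.4. Foxh1, the DNA-binding partner of the Smad proteins that Nodal activates, had 2231 and 1257 counts at EB5 and 42.0 and 58.2 at EB8 (log2 change -5.05 ± 0.35, adjusted p = 2.30e-05). In each of these genes both EB8 libraries were more than an order of magnitude below both EB5 libraries, where the choice of the 12 already required both to lie below. Grifin, a lens protein related to the galectins, had the largest fall of the 12 (268 and 402 to 0 and 3.18, log2 change -7.33), and it was at 0 in both EB4 libraries. The forkhead factor Foxd4, the helix-loop-helix factor Tal2, the Wnt antagonist Sfrp5, the cytokine Tnfsf11, Vrtn, Ms4a4d and the hormone precursor Trh fell by between 4.35 (Trh) and 5.47 (Vrtn) on the log2 scale.

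**Figure D1:**
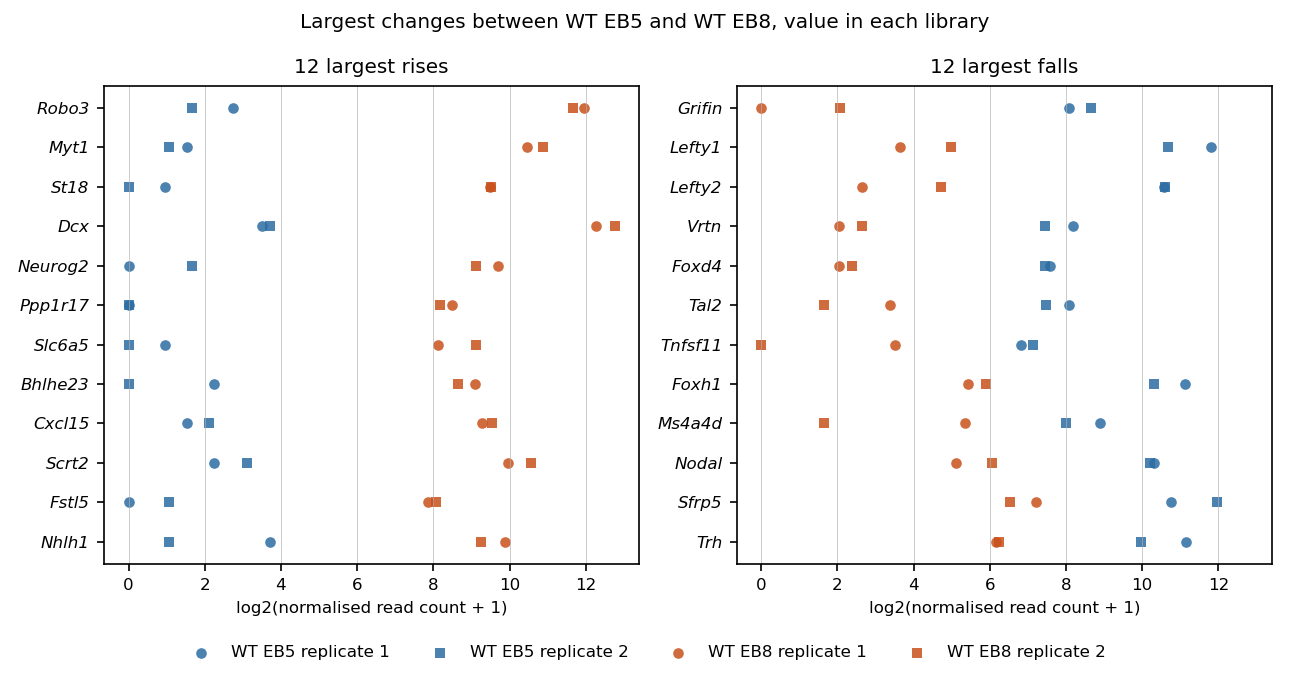
Normalised read counts of the genes that rose most (12) and fell most (12) from WT EB5 to WT EB8, on a log2(count + 1) axis, with 1 point per library. In each of the 24 genes both EB8 points lie on the same side of both EB5 points, as the choice of genes required.

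Sorted by function, 186 of 599 tested genes in 36 lists changed, and the lists differed widely in share and direction. The lists of neuronal and pluripotency genes had the largest shares. All lists were chosen with earlier results of these data known, so this order is not independent of those results. Of 25 tested pan-neuronal genes 16 rose, of 19 proneural genes 11, of 29 factors of postmitotic neurons 16 and of 13 general pluripotency genes 11 fell, against 5.82% higher and 4.62% lower over all genes. No member was called in the lists of DNA replication, ribosomal protein, mitochondrially encoded, hypoxia, p53 target, immediate early, glia and hindbrain genes. These are counts, not tests of a list, and the 186 calls dropped to 101, 121 and 109 without EB5 replicate 1, EB8 replicate 1 and EB8 replicate 2. RNA of whole aggregates cannot tell fewer cells of a type from less RNA per cell. List counts without the block, here and below, stand against 5.82% higher and 4.62% lower over all tested genes. Those with the block stand against 9.05% higher and 7.37% lower, and those of the first day of RA against 2.59% and 1.14%.

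**Figure D2:**
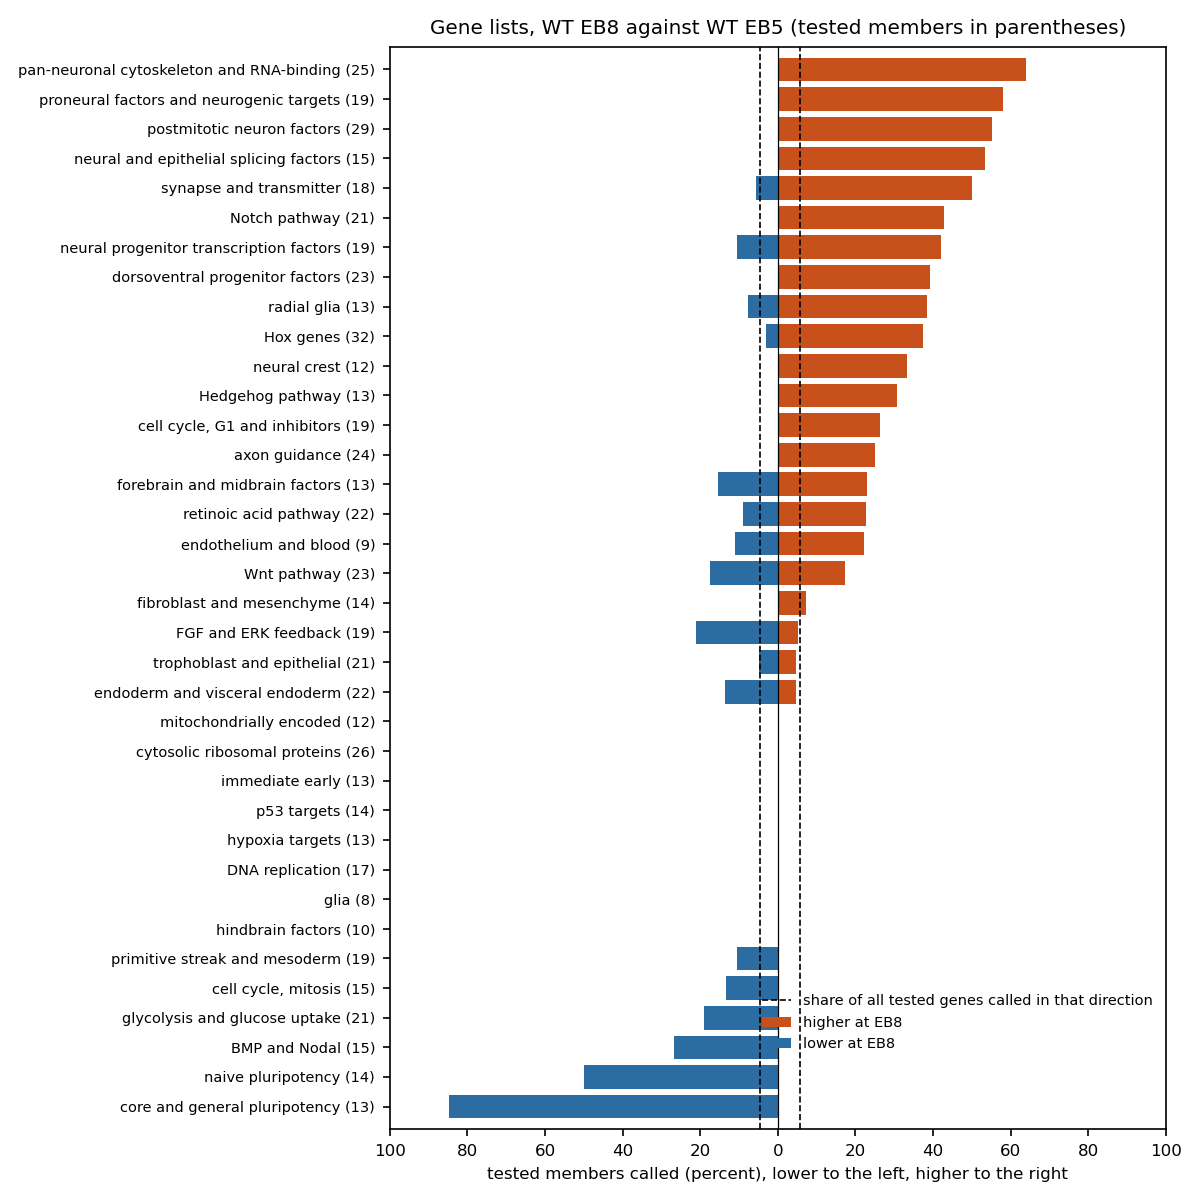
Share of the tested members of each of the 36 gene lists that were called higher (right) or lower (left) at WT EB8 than at WT EB5, with the share over all 16124 tested genes as dashed lines (5.82% and 4.62%). Neuronal lists reach furthest to the right and the lists of pluripotency genes furthest to the left. The lists were chosen with earlier results of these data known.

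Of the 22 listed genes of the RA pathway, all tested, 5 rose and 2 fell between EB5 and EB8, with a median log2 change of 0.47. Over all tested genes 5.82% rose and 4.62% fell. Over the first day of RA, from EB4 to EB5, 13 of the 22 had risen, against 2.59% of all tested genes called higher and 1.14% called lower between those stages. Both comparisons use the EB5 libraries, so their values are set side by side only. Rarb and Cyp26a1 are textbook targets with an RA response element close to their start. Of the 17 listed genes with a promoter window in RefSeq (GRCm38.p6, 250 bases before to 50 after the start), only these held the element searched for, the half-site NGNTCA and a copy of it in the same direction with 5 bases between. Over all genes 0.861% of the 32851 windows held it. With 2 bases between the half-sites, a spacing found in 1.11% of the windows, no listed gene had a match. Crabp2, Rdh10, Aldh1a3 and Ncoa3 are among the listed genes for which no promoter window was read. To show these elements in place, the following are the 120 bases before the start of both genes, 5′ to 3′ on the strand of the gene, with the element in capitals (Rarb at chr14:16575477-16575596, minus strand, and Cyp26a1 at chr19:37697688-37697807, plus strand).
Rarb: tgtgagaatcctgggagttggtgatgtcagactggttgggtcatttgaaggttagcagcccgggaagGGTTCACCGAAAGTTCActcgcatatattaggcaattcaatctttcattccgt
Cyp26a1: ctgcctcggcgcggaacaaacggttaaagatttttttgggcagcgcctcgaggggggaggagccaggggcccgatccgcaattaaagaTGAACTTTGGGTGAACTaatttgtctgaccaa
The element of Rarb lies 53 to 37 bases before the start and reads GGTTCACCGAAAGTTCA on the strand of the gene. That of Cyp26a1 lies 32 to 16 bases before the start and reads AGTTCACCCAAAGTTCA on the opposite strand. The elements share 15 of 17 bases in this orientation.

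Both genes with the element had risen by EB5. Cyp26a1, an RA-degrading enzyme, had 53.7 and 344 counts at EB4, 9699 and 13968 at EB5 and 11284 and 13264 at EB8. Its log2 change was 6.40 over the first day (adjusted p = 1.84e-04) and 0.07 ± 0.67 between EB5 and EB8 (adjusted p = 0.97). The receptor gene Rarb had 37.3 and 81.5 counts at EB4, 1689 and 2819 at EB5 and 5798 and 7403 at EB8. Its log2 change was 5.28 over the first day (adjusted p = 1.52e-04). Between EB5 and EB8 it was 1.59 ± 0.53 with an adjusted p of 0.0809, and of 0.00411 with the replicate block. Both EB8 libraries lay above both EB5 libraries, as in 28.6% of all tested genes.

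Cyp26b1 (chr6:84521938-84543740, mm9), another RA-degrading enzyme without a match in its window, had the largest log2 change of the list. Its counts were 1.10 and 10.7 at EB4, 481 and 1216 at EB5 and 18735 and 38733 at EB8 (log2 change after EB5 5.14 ± 0.78, adjusted p = 0.0018). Genes for making RA rose too. Aldh1a1, which makes RA from retinaldehyde, went from 13.2 and 20.9 to 413 and 487, and Rdh10, which makes retinaldehyde from retinol, from 190.1 and 363 to 832 and 1125. The genes of both cellular RA-binding proteins moved in opposite directions. Crabp1 rose from 365 and 804 to 5086 and 5116 (log2 change 3.23 ± 0.51, adjusted p = 0.00217), while Crabp2, which had risen from 706 and 581 at EB4 to 28139 and 36589.7 at EB5, fell to 12556 and 6037 (-1.88 ± 0.47, adjusted p = 0.0235). The receptor gene Rarg fell from 2854 and 992 to 612 and 611 with an adjusted p of 0.0499, close to the threshold. Aldh1a2 went from 36.7 and 92.2 to 275 and 212, with an adjusted p of 0.0533 that came to 0.0373 with the block.

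**Figure D3:**
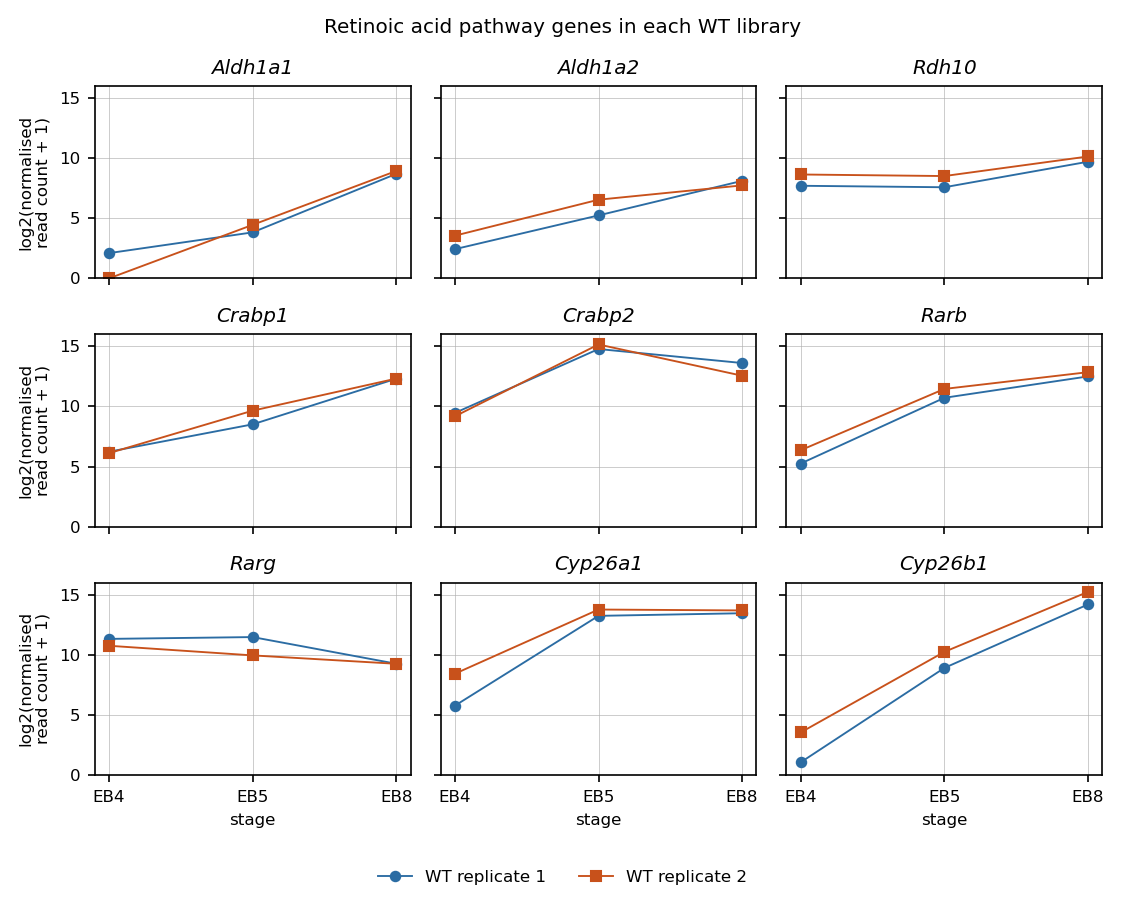
Normalised read counts of 9 RA pathway genes in the WT libraries at EB4, EB5 and EB8, on a log2(count + 1) axis, with 1 line per replicate. Cyp26a1 is level after EB5, Crabp2 peaks at EB5, and Cyp26b1, Crabp1 and Aldh1a1 are highest at EB8 in both replicates.

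Proneural factors start neuronal differentiation. Of 19 tested proneural factors and neurogenic targets 11 rose and none fell, with a median log2 change of 1.93 and a positive change in all 19. Neurog1 went from 27.3 and 17.6 to 1897 and 2343 (log2 change 6.52 ± 0.86, adjusted p = 7.52e-04). Neurod4, which acts after the Neurog factors, and Insm1, a zinc finger factor of cells leaving the cycle, rose from 19.8 and 1.10 to 922 and 944 and from 78.1 and 78.0 to 883 and 2056. In each of these 3 genes both EB8 libraries lay above both EB5 libraries, as in 28.6% of all tested genes. They were picked as called rises, so this adds no support. Neurod1, Gadd45g, Id2, Id4 and the E proteins Tcf4 and Tcf12, named after their values were seen, rose by 3.90, 3.23, 1.20, 2.70, 1.14 and 0.83 on the log2 scale. In WT ES cells Neurod1 stood at 706 and 156 counts and Insm1 at 528 and 86.1, above their EB5 values. Id proteins bind E proteins and so keep them from pairing with proneural factors. Hes6, which opposes Notch signalling, had 444 and 501 counts at EB5 and 1186 and 1177 at EB8, with an adjusted p of 0.0573 that came to 0.0183 with the block.

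In the Notch pathway 9 of 21 tested genes rose and none fell, with a median log2 change of 0.50. The ligand gene Dll3 rose from 141 and 79.1 to 884 and 1027 and Dll4 from 27.3 and 4.39 to 219 and 217, and the related Dlk1 from 119.5 and 267 to 2562 and 3228 (log2 change 4.00 ± 0.37, adjusted p = 8.57e-05). The receptor gene Notch1 rose from 1746 and 1335 to 3937 and 4290.1. Of the targets, Hes5 went from 35.8 and 32.9 to 811 and 1101 (4.74 ± 0.81, adjusted p = 0.00326) and Heyl from 11.3 and 8.79 to 125 and 174. The remaining calls of the list, named after their values were seen, were the ligand gene Jag1 (1.07), Mfng, which modifies Notch (1.56), and the feedback target Nrarp, from 224 and 136 to 1731 and 1341 (3.12). Dll1 had 782 and 706 counts at EB5 and 1762 and 1301 at EB8 (adjusted p = 0.115) and Rbpj, the DNA-binding partner of cut Notch, 4811 and 4684 at EB5 and 5029 and 5494 at EB8, a log2 change of 0.15 ± 0.18.

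Factors of postmitotic neurons rose in 16 of 29 tested members and fell in none, with a median log2 change of 3.11. Beside Myt1, St18, Scrt2 and Nhlh1, Scrt1 went from 3.76 and 7.69 to 653 and 1172 (log2 change 7.09 ± 1.08, adjusted p = 0.00174). The other called members are named so that the set is complete, after their values were seen. Lbx1, a factor of dorsal spinal inhibitory neurons, went from 5.65 and 8.79 to 369.6 and 598 (log2 change 5.87 ± 0.88, adjusted p = 0.00161), Lhx5, of dorsal and intermediate interneurons, from 9.41 and 11.0 to 961 and 1185 and Nhlh2 from 24.5 and 30.7 to 3176 and 3697. Ebf2 and Ebf3, factors of cells leaving the ventricular zone, rose by 4.99 and 5.72. Onecut1, Onecut2 and Onecut3 rose by 3.68, 3.11 and 3.90, and Myt1l, the third member of the Myt1 family, by 3.09. Of 2 ventral interneuron factors, Lhx3, which motor neurons also use, went from 7.53 and 9.88 to 31.5 and 93.2 (2.52), and Evx1 had no read at EB5 and 15.8 and 8.47 counts at EB8, at least 7.98-fold higher with 3 reads over the group as the floor (adjusted p = 0.0322, 0.0652 with the block). Evx1 had fallen over the first day (log2 change -4.37, adjusted p = 0.0269), with 26.4 and 21.5 counts in WT ES cells and 4.38 and 78.3 at EB4. Isl1, of motor neurons, had 24.5 and 12.1 counts at EB5 and 46.2 and 142 at EB8 and did not pass the test (adjusted p = 0.0862).

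Of the 25 pan-neuronal genes of the cytoskeleton, adhesion and RNA binding, 16 rose, none fell, and all 25 had a positive log2 change, with a median of 2.33. Tubb3, the neuronal beta-tubulin, which was chosen after its values were seen, went from 386 and 419 to 5245 and 5469.6 (log2 change 3.73 ± 0.27, adjusted p = 2.45e-05). Elavl4, which stabilises neuronal messenger RNAs, rose from 125 and 133 to 1797 and 2062, Tagln3 from 92.2 and 41.7 to 1849 and 1599.8 and the axonal adhesion molecule Cntn2 from 327 and 184 to 3116 and 4959. The neurofilament gene Nefm went from 463 and 226 to 4337 and 5774. In all 5 of these genes both EB8 libraries lay above both EB5 libraries, as in 28.6% of all tested genes. All 5 were taken as called rises, so this adds no support. The 9 calls that complete the set with Dcx and Rbfox3 were named after their values were seen. Among the microtubule-associated proteins, Mtap2, the gene of MAP2, went from 609 and 293 to 3409 and 5461 (3.35), and Mapt, the tau gene, from 53.6 and 35.1 to 454 and 782 (3.75). In WT ES cells Mapt stood at 491 and 1536 counts and Tubb3 at 2181 and 2263, above their EB5 levels. Mtap2 had 368 and 379 there, between its EB5 values. At WT EB4 Nefm stood at 1242 and 453 counts and Nefl at 922 and 594. Elavl3 rose by 3.19, Nefl by 3.09, Stmn4 by 2.73, Dpysl3 by 2.33, the adhesion molecule Ncam1 by 2.30, the neurofilament-related Ina by 2.14 and the reticulon gene Rtn1 by 2.01. The growth cone gene Gap43 had 1417 and 915 counts at EB5 and 2286 and 1515 at EB8 and Stmn2, another gene of growing neurites, 1391 and 907 at EB5 and 1468 and 1799 at EB8, and neither passed the test (adjusted p = 0.456 and 0.608).

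Genes for synapses and transmitters rose in 9 of 18 tested members and fell in 1, with a median log2 change of 1.94. Over all tested genes 5.82% rose and 4.62% fell, so the 1 fall is near that share. The glutamate receptor subunits Gria1 and Gria2 went from 6.59 and 2.20 to 121 and 130.2 and from 0 and 4.39 to 113 and 349, and Snap25, which drives vesicle fusion, from 25.4 and 28.6 to 461 and 555 (log2 change 4.18 ± 0.53, adjusted p = 5.81e-04). The NMDA receptor subunit gene Grin1 fell from 648 and 409.6 to 60.9 and 73.1 (-2.93 ± 0.54, adjusted p = 0.00524). Transmitter genes of inhibitory neurons were among those that rose. Slc6a5 was the largest change of the list, the vesicular transporter for glycine and GABA, Slc32a1, went from 15.1 and 11.0 to 84.0 and 236, and the GABA-making enzyme Gad1 from 79.0 and 27.5 to 175 and 191. Syt4, a vesicle protein, and Vamp2, the vesicle partner of Snap25, rose by 3.06 and 0.83. The last 4 were chosen after their values were seen, and the call of Gad1 (adjusted p = 0.035) was lost with the block (0.0531). The rise of Syt4 followed a fall over the first day (log2 change -2.93, adjusted p = 0.00902). Its counts were 116 and 80.4 at EB4, 14.1 and 9.88 at EB5 and 119 and 94.2 at EB8. Gad2 had 32.0 and 68.1 counts at EB5 and 155 and 214 at EB8 (adjusted p = 0.223).

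Of the vesicular glutamate transporters, Slc17a8 rose from 3.76 and 7.69 to 36.8 and 191 (log2 change 3.72 ± 1.01, adjusted p = 0.0357). Slc17a6 encodes Vglut2, which the study used to mark glutamatergic neurons. It was below the level needed for a test, with 0 and 0 counts at EB5 and 4.20 and 0 at EB8. The study saw Vglut2 in WT neurons kept in culture after plating, a later time than EB8. For Slc17a7 the counts were 89.4 and 36.2 at EB5 and 57.8 and 26.5 at EB8 (adjusted p = 0.672). Chat, the marker of cholinergic neurons, had 2.82 and 0 counts at EB5 and 1.05 and 0 at EB8 and was not tested. Syp, an abundant protein of synaptic vesicles, had 209 and 133 counts at EB5 and 353 and 466 at EB8 (adjusted p = 0.215).

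Of 15 tested splicing factors 8 rose and none fell, with a median log2 change of 0.79. Srrm4, which promotes neuronal microexons, went from 32.0 and 11.0 to 1437 and 1889 (log2 change 6.37 ± 0.52, adjusted p = 4.50e-05). Celf3 rose from 18.8 and 31.8 to 802 and 1209, Nova1 from 417 and 593 to 2073 and 2701, Rbfox1 from 7.53 and 4.39 to 92.4 and 150.3 and Rbfox3, the source of the NeuN antigen, from 32.0 and 27.5 to 238 and 235. Nova2, Celf4 and Ptbp2, the neuronal relative of Ptbp1, named after their values were seen, rose by 2.10, 1.78 and 0.79. Ptbp1, which represses neuronal exons in dividing cells, had 18068 and 20406 counts at EB5 and 14270.0 and 13988 at EB8, a log2 change of -0.44 ± 0.17 (adjusted p = 0.133). The epithelial factor Esrp1 had 3038 and 2343 counts at EB5 and 1410.3 and 1309 at EB8, with an adjusted p of 0.0942 that came to 0.00627 with the block. Among axon guidance genes 6 of 24 rose, and 10 with the block, where 1 fell (median 0.88). The block called 9.05% of all tested genes higher and 7.37% lower. Dcc, the netrin receptor, went from 2.82 and 58.2 to 978 and 1465, Unc5c, its repulsive partner, from 23.5 and 180.1 to 476 and 1547, and the ephrin receptors Epha3 and Epha5 from 43.3 and 34.0 to 2045 and 3834 and from 10.4 and 35.1 to 119 and 291. Robo1, named after its values were seen, rose by 1.89. In Dcc and Unc5c the EB5 replicates were far apart.

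Neural progenitor factors changed in both directions. Of 19 tested 8 rose and 2 fell, with a median log2 change of 1.78. The POU factors Pou3f2, Pou3f3 and Pou3f4 rose. Pou3f3 went from 12.2 and 19.8 to 2289 and 2234 (log2 change 7.09 ± 0.49, adjusted p = 2.30e-05), Pou3f2 from 34.8 and 174 to 1542 and 2123 and Pou3f4 from 25.4 and 23.1 to 887 and 459.5. Nr2f1, an orphan nuclear receptor that RA induces, rose from 358 and 1201 to 7276 and 8335 after a log2 change of 8.52 over the first day. Pax6, which marks neuroepithelium, had already changed by 4.57 over the first day and had 2855 and 6135 counts at EB5 and 5447 and 5317 at EB8 afterwards (0.36 ± 0.57, adjusted p = 0.758). Sox9 had 198 and 326 counts at EB5 and 1525 and 2483 at EB8 with an adjusted p of 0.0773, and of 0.00161 with the block. The early neural plate factor Zic2 fell from 3531 and 1767 to 575 and 983 (-1.73 ± 0.50, adjusted p = 0.0477). Its relatives Zic1 and Zic4, named with Sox3 after their values were seen, rose, Zic1 from 149.6 and 261 to 981 and 1810.5 (2.75 ± 0.71, adjusted p = 0.0289) and Zic4 from 4.70 and 14.3 to 64.1 and 125, and Sox3 rose by 1.78.

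Of 13 genes of radial glia, the elongated progenitors of the neural tube, 5 rose and 1 fell, with a median log2 change of 1.02. Over all tested genes 5.82% rose and 4.62% fell. Vim, an intermediate filament, rose from 2088 and 1881 to 20563 and 19598 (log2 change 3.34 ± 0.26, adjusted p = 4.19e-05), Fabp7 from 16.0 and 3.29 to 354 and 281, the glutamate transporter Slc1a3 from 629.5 and 598 to 3416 and 4542 and the RNA-binding protein Msi1 from 4113 and 4641 to 8309.6 and 10220.4. Nes, the intermediate filament that defines neural progenitors, had 9156 and 13298 counts at EB5 and 12104 and 7454 at EB8, a log2 change of -0.22 ± 0.57. Ptprz1 fell from 1206 and 1676 to 179 and 268 (-2.70 ± 0.54, adjusted p = 0.00784). Genes of mature glia gave no call among 8 tested, though 2 were lower with the block. Their median was -0.94. Aqp4, with 4.20 and 4.24 counts at EB8, and S100b, with 0 and 0, were not tested. Sox10 had 7.35 and 20.1 counts at EB8 and Mbp, a myelin gene, 999.7 and 989, and neither passed the test, nor did the astrocyte gene Aldh1l1 (171 and 62.6 at EB5 and 18.9 and 16.9 at EB8), whose adjusted p was 0.0996 and 0.0123 with the block.

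Dorsoventral position in the neural tube is set by BMP and Wnt signals from the roof plate and by Sonic hedgehog from the floor plate. Of 23 tested factors of these domains 9 rose and none fell, with a median log2 change of 2.66. With the block 16 rose, against 9.05% of all tested genes. Msx3 and Pax7, of dorsal progenitors, went from 55.5 and 93.3 to 1728 and 1649 (log2 change 4.53 ± 0.75, adjusted p = 0.00286) and from 55.5 and 59.3 to 793 and 1012 (3.94 ± 0.64, adjusted p = 0.00248). Ptf1a, which specifies dorsal inhibitory neurons, went from 1.88 and 6.59 to 75.6 and 123. Named after their values were seen, Lmx1a, of the roof plate, Pax3, of dorsal progenitors, Prdm12 and Irx5 rose by 3.94, 1.95, 3.74 and 2.46, and Shh, of the floor plate, was called too. Dbx1, of intermediate progenitors, had 0 and 2.14 counts at EB4, 612 and 1631 at EB5 and 4360.1 and 3448 at EB8, with a log2 change of 9.14 over the first day and of 1.96 ± 0.87 afterwards (adjusted p = 0.186 and 0.0335 with the block). Foxb1 had 163 and 254 counts at EB5 and 754 and 620.4 at EB8 (adjusted p = 0.275). Olig2, of motor neuron progenitors, had 5.65 and 17.6 counts at EB5 and 173 and 289 at EB8 (adjusted p = 0.174), and its EB4 replicates were 0 and 462.

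The Hedgehog pathway rose in 4 of 13 tested genes and fell in none, with a median log2 change of 1.06. With the block 7 rose and none fell, against 9.05% higher over all tested genes. Shh went from 0.941 and 5.49 to 104 and 176 (log2 change 5.26 ± 0.70, adjusted p = 8.14e-04) and the related ligand gene Ihh from 15.1 and 14.3 to 331 and 332. The co-receptors Boc and Gas1 rose from 526 and 869 to 3057 and 3568 and from 1086 and 1981 to 7269.9 and 8462. Of the pathway's feedback targets, Gli1 had 792 and 92.2 counts at EB5 and 1499 and 955 at EB8 (adjusted p = 0.082, 0.0295 with the block) and Hhip, which binds the ligand, 139 and 122 at EB5 and 601 and 695 at EB8 (adjusted p = 0.0567, 0.00989 with the block).

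Of 13 tested forebrain and midbrain factors 3 rose and 2 fell, with a median log2 change of 1.31. The rises were of Pax genes that the midbrain-hindbrain border and the spinal cord use. Otx2, which sets up forebrain and midbrain, fell from 1273 and 754 to 44.1 and 178 (log2 change -3.45 ± 0.53, adjusted p = 0.00179). Pax2, Pax5 and Pax8 rose, Pax2 from 36.7 and 40.6 to 926 and 1506 (4.90 ± 0.93, adjusted p = 0.00608), Pax5 from 10.4 and 6.59 to 161 and 235 and Pax8 from 35.8 and 12.1 to 387 and 528. The forebrain factors Six3, with 0 and 3.18 counts at EB8, and Emx1, with 1.05 and 6.35, were not tested. None of 10 hindbrain factors was called (median -0.94), and 2 rose and 2 fell with the block, after 7 had risen over the first day. Over all tested genes 2.59% rose over the first day, and with the block 9.05% rose and 7.37% fell between EB5 and EB8.

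Hox genes lie in 4 clusters, and paralogue groups number their places from the 3′ end, which RA reaches first. Of 32 tested Hox genes 12 rose and 1 fell between EB5 and EB8, with a median log2 change of 2.10. With the block 19 rose and 2 fell, against 9.05% and 7.37% of all tested genes. Paralogue group 1 had a median log2 change of -1.34 over 3 genes, but not all of them fell, and the highest change was 1.52. That median is the value of Hoxb1, which was called only with the block. Hoxb1 had 2096 and 1916 counts at EB5 and 1044 and 601 at EB8 (log2 change -1.34 ± 0.84, adjusted p = 0.37, 0.0225 with the block). In groups 2 and 3 the median was 2.00 over 5 genes and in groups 4 and 5 it was 2.10 over 7 genes. Of these 12 genes Hoxa4, Hoxa5 and Hoxd3 were called higher, and 10 genes were called with the block. Their changes were 2.95, 2.34 and 3.07, and they are named, like the calls of groups 6 to 9 that complete the set, after their values were seen. All 12 had risen over the first day, by medians of 7.76 and 8.30. Hoxb4 had 1380.4 and 1775 counts at EB5 and 4419.9 and 4338 at EB8 (1.48 ± 0.62, adjusted p = 0.158) and Hoxc4 1832 and 2955 at EB5 and 3966 and 4406 at EB8 (0.84 ± 0.55, adjusted p = 0.388).

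The largest Hox changes after EB5 lay in paralogue groups 6 to 9, where 9 of 12 genes rose with a median log2 change of 4.09, against 2.82 over the first day. Hoxb9 (chr11:96132771-96137909, mm9) went from 3.29 and 17.2 at EB4 and 36.7 and 59.3 at EB5 to 5724 and 7120.3 at EB8 (log2 change 7.07 ± 0.66, adjusted p = 9.51e-05). Hoxa6 went from 18.8 and 4.39 to 806 and 1523 (6.75 ± 0.68, adjusted p = 1.35e-04) and Hoxc6 from 16.0 and 15.4 to 651 and 1017. Hoxb7 and Hoxb8, whose exons overlap, went from 37.6 and 34.0 to 997 and 1372 and from 79.0 and 39.5 to 3581 and 4993. Hoxb6 went from 266 and 267 to 4241 and 5902, and Hoxa7, Hoxa9 and Hoxd8 rose by 2.84, 2.26 and 3.95, of which Hoxa9 lost its call with the block (adjusted p = 0.0684). Of the 12 genes of groups 10 to 13 only 5 were tested, none was called and 1 was with the block. Hoxb13 had the highest counts among them at EB8, 13.2 and 13.2 at EB5 and 92.4 and 128 at EB8, and Hoxc11, Hoxc12, Hoxd10, Hoxd11 and Hoxd12 had no read in any of the 4 libraries.

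**Figure D4:**
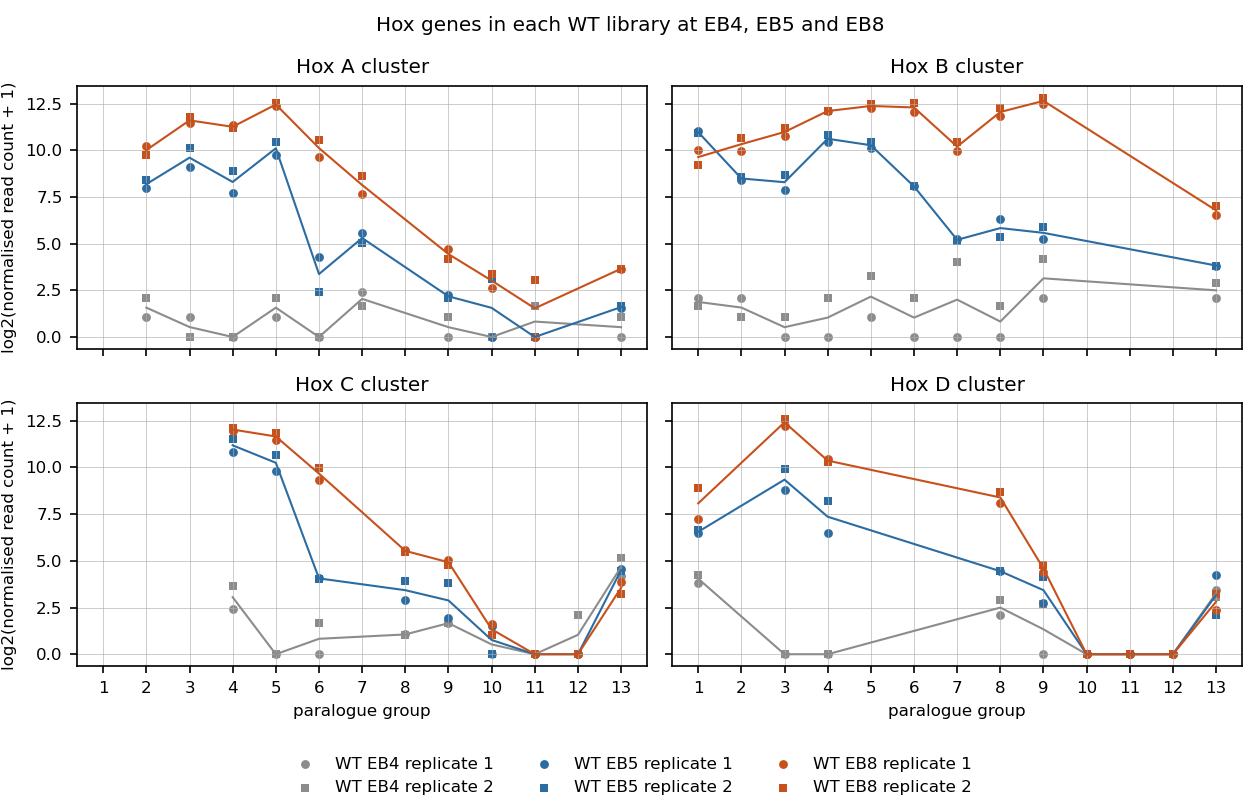
Normalised read counts of Hox genes of each cluster by paralogue group in the WT libraries, on a log2(count + 1) axis, with points for libraries and lines through the mean of both replicates at EB4, EB5 and EB8. The gap between EB5 and EB8 is widest in groups 6 to 9 and turns over in group 1 of cluster B. A gene not reported here is not drawn. Counts are not divided by gene length, so heights are compared within a gene only.

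Of 13 general pluripotency genes 11 fell, and all 13 with the block, with a median log2 change of -2.27. Pou5f1, the core factor Oct4, went from 19285 and 9597 at EB4 through 4186 and 1936 at EB5 to 193 and 260.5 at EB8 (log2 change after EB5 -3.66 ± 0.38, adjusted p = 1.50e-04). Nanog went from 1466 and 2148 to 118 and 313 (-3.20 ± 0.55, adjusted p = 0.00345), Utf1 from 2991 and 1276 to 130.2 and 148 and L1td1 from 2629 and 1825 to 236 and 201. The remaining calls were named after their values were seen. Lin28a, an RNA-binding protein that blocks let-7 maturation, went from 22487 and 22993 to 3296 and 2007 (-3.14), Trim71 from 4021 and 5119 to 1526 and 1489 (-1.59) and the DNA methyltransferase gene Dnmt3b from 4259.9 and 3437 to 947 and 665 (-2.27). Sall4, Dppa2 and Dnmt3l changed by -1.76, -2.07 and -1.87. Sox2, which neural progenitors keep, had 7902 and 6959.9 counts at EB5 and 3951 and 5241 at EB8, the smallest change of the list (-0.70 ± 0.24, adjusted p = 0.0843, 0.0351 with the block). Of 14 genes of naive pluripotency, the state before implantation, 7 fell, 11 with the block, with a median log2 change of -2.13. Esrrb went from 1637 and 1501 to 199.5 and 349 (-2.57 ± 0.33, adjusted p = 6.28e-04), and Dppa5a, Prdm14, Tcl1 and Fgf4 also fell, as did Klf2 (-2.54) and Tfcp2l1 (-1.86), which were named after their values were seen. Zfp42 had 1293 and 325 counts at EB5 and 242 and 123 at EB8 (adjusted p = 0.162, 0.0169 with the block). The naive factor Gbx2, which the hindbrain also uses, had 12.1 and 30.0 counts at EB4, 1065 and 1285 at EB5 and 369.6 and 699 at EB8 (adjusted p after EB5 0.426, 0.0381 with the block).

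In the BMP and Nodal list 4 of 15 tested genes fell, namely Nodal, Lefty1, Lefty2 and Gdf3, a Nodal-related ligand (375 and 171 to 17.9 and 37.1), and none rose. The list's median was -0.10, and over all tested genes 4.62% were called lower. Tdgf1, the Nodal co-receptor Cripto, fell from 1799 and 699.5 to 57.8 and 247 (log2 change -3.22 ± 0.64, adjusted p = 0.00782). The BMP ligand gene Bmp4 had 209.8 and 331 counts at EB5 and 122 and 194 at EB8 (adjusted p = 0.29), and Bmp7 864 and 884 at EB5 and 2186 and 2242 at EB8 (adjusted p = 0.0531, 0.00706 with the block).

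In the FGF and ERK list 4 of 19 genes fell and 1 rose, and 6 and 2 with the block, with a median of -0.59. Over all tested genes 4.62% fell and 5.82% rose, so the 1 rise is near that share. Fgf4, the FGF of ES cells, fell from 262 and 171 to 7.35 and 61.4, and the feedback genes Etv5 and Spry4 from 2553 and 1770.2 to 301 and 421 (log2 change -2.57 ± 0.28, adjusted p = 1.98e-04) and from 312 and 204 to 60.9 and 54.0. Of the receptors, Fgfr1 fell from 8675 and 5082 to 4126 and 3152 and Fgfr3, which neural progenitors carry, rose from 596 and 426 to 2408 and 2875 (2.38 ± 0.41, adjusted p = 0.00368). Dusp6, a phosphatase of ERK, had 2162 and 2321 counts at EB5 and 935 and 1469 at EB8 (adjusted p = 0.284, 0.0132 with the block). In the Wnt list 4 of 23 rose and 4 fell, against the same 5.82% and 4.62% over all tested genes, with a median of 0.72. The ligand genes Wnt4, Wnt6 and Wnt7a rose, Wnt4 from 99.7 and 81.3 to 343 and 783 (2.51 ± 0.45, adjusted p = 0.00463), while Wnt8a fell from 160.0 and 17.6 to 2.10 and 3.18. Tcf7l2 rose from 448 and 470.0 to 1213 and 986 and Tcf7, another DNA-binding factor of the pathway, fell from 3774 and 2727 to 1136 and 1275 (-1.41 ± 0.27, adjusted p = 0.00668). The antagonists Dkk1 and Sfrp5 fell, and the target Axin2 had 539 and 731 counts at EB5 and 1004 and 1073 at EB8 (adjusted p = 0.332).

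RNA of other cell types was followed by lists of their markers, against 5.82% higher and 4.62% lower over all tested genes. Of 19 tested mesoderm genes 2 fell, Eomes among them, and none rose (median -0.64), and the summed counts of the list were 3707 and 4625 at EB5 and 2137 and 3416 at EB8. Eomes went from 139 and 91.1 to 23.1 and 12.7, T had 6.30 and 3.18 counts at EB8 and Mesp1 0 and 0. Meox1, of somites, had 92.2 and 466 counts at EB5 and 409.5 and 1061 at EB8 (adjusted p = 0.303). Of 22 endoderm genes 1 rose and 3 fell (median -0.43), with summed counts of 43219.7 and 44946 at EB5 and 53062 and 37858 at EB8. Apob fell from 151 and 172 to 39.9 and 1.06 and Apoe, also made by many other cells, from 13685 and 6468 to 3864 and 3102. Foxa1, which the floor plate also uses, rose from 355 and 494 to 1564 and 1038 (log2 change 1.60 ± 0.38, adjusted p = 0.0185). Sox17 had 326 and 958 counts at EB5 and 339 and 483 at EB8, and Afp, Apoa1 and Ttr, which define visceral endoderm and liver, were not tested. Afp had 26.3 and 5.29 counts at EB8, Apoa1 32.6 and 14.8 and Ttr 33.6 and 4.24.

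Of 21 trophoblast and epithelial genes, with summed counts of 53688 and 33785 at EB5 and 47519.9 and 32008 at EB8, 1 rose and 1 fell, and 1 and 5 with the block (median 0.28). The calls without the block are near the shares over all tested genes, 5.82% higher and 4.62% lower. With the block those shares were 9.05% and 7.37%. Elf5 rose from 5.65 and 12.1 to 48.3 and 155 and Tfap2c fell from 894 and 1586 to 158 and 361, while Cdx2 had 31.5 and 45.5 counts at EB8. Cdh1, the epithelial cadherin of ES cells, had 20887 and 7277 counts at EB5 and 9823 and 3749 at EB8 (log2 change -1.02 ± 0.48, adjusted p = 0.216, 0.0099 with the block). Neural crest genes rose in 4 of 12 (median 0.15), with summed counts of 1702 and 2047 at EB5 and 2551 and 3513 at EB8. Tfap2b went from 19.8 and 38.4 to 637 and 1078 (4.86 ± 1.13, adjusted p = 0.0173), Foxd3 from 21.6 and 18.7 to 117 and 330.3 (3.23 ± 0.67, adjusted p = 0.00966) and Ngfr from 105 and 63.7 to 373 and 440.4, and Sox8 rose as well. Foxd3 had 1023 and 709 counts at EB4, when ES cell genes were still high, and Sox10, which defines migrating crest, 7.35 and 20.1 at EB8.

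Of 14 fibroblast genes, which would also mark feeder cells, 1 rose, and 2 rose and 1 fell with the block (median -0.02), with summed counts of 27901 and 16865 at EB5 and 20929.9 and 19772 at EB8. Col3a1 went from 44.2 and 144 to 887 and 1466 (log2 change 3.82 ± 0.91, adjusted p = 0.019), whereas Col1a1 had 964 and 351 counts at EB5 and 334 and 578 at EB8 (adjusted p = 0.763). Of 9 tested endothelial and blood genes 2 rose and 1 fell, and 3 and 2 with the block (median -0.52), with summed counts of 1072 and 1129 at EB5 and 1176 and 1123 at EB8. Cdh5, the cadherin of endothelium, went from 37.6 and 54.9 to 263 and 237, Emcn from 0.941 and 9.88 to 129 and 76.2 and Tek from 127 and 131 to 53.6 and 46.6. The embryonic globin Hbb-y had 2.10 and 0 counts at EB8, and Hba-x 2.10 and 0. The part of these cells in the neural values was not tested.

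Genes of the dividing cell were followed in 3 lists, against 5.82% higher and 4.62% lower over all tested genes. None of 17 DNA replication genes was called, though 1 was lower with the block (median -0.22), and Pcna had 5264 and 7837 counts at EB5 and 6681 and 7061 at EB8. Of 15 mitotic genes 2 fell, with a median of -0.28. Bub1 went from 6754 and 6702 to 3456 and 4259 (log2 change -0.81 ± 0.16, adjusted p = 0.00718) and Ccnb2 from 4165 and 4025 to 2493 and 3120.2 (-0.55 ± 0.14, adjusted p = 0.0295, 0.0559 with the block). Mki67, which marks all cycling cells, had 18899 and 18316 counts at EB5 and 17619 and 18082 at EB8, a log2 change of -0.06 ± 0.17 (adjusted p = 0.877). Genes of the G1 phase and of cell cycle inhibitors rose in 5 of 19, with a median of 0.55. Of the D cyclins, which carry cells through G1, Ccnd1 and Ccnd2 alone were called. Ccnd1 rose from 1355 and 1036 to 7111 and 5281 (2.37 ± 0.47, adjusted p = 0.00746) and Ccnd2 from 4683 and 10086 to 40499.8 and 31206 (2.37 ± 0.59, adjusted p = 0.0234). Cdkn2c, E2f1 and Rbl1 rose by 1.84, 1.01 and 0.77. The inhibitor Cdkn1c differed between the replicates, with 1093 and 149 at EB5 and 8146 and 337 at EB8 (adjusted p = 0.347, 0.0544 with the block).

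Glycolysis and glucose uptake fell in 4 of 21 tested genes and rose in none, with a negative change in 20 of 21 and a median of -0.61. Over all tested genes 4.62% were called lower. The glucose transporter gene Slc2a3 went from 113805 and 87943 to 12019.6 and 21952 (log2 change -2.62 ± 0.40, adjusted p = 0.00184). Ldhb fell from 9633 and 13849.6 to 2438 and 3381, Aldoc from 2623 and 1399 to 566 and 666 and Pfkl, of the committed step, from 22884 and 21697 to 9321 and 13369. Slc2a1 had 71589.7 and 86629 counts at EB5 and 24426 and 42658 at EB8 (adjusted p = 0.0871, 0.00905 with the block) and Ldha 51073 and 55774 at EB5 and 35332 and 49746 at EB8 (adjusted p = 0.505). Summed over the list the counts were 753947 and 687030.0 at EB5 and 344266 and 470440.0 at EB8. Hypoxia targets, which share genes with this list, gave no call among 13 and 1 fall with the block (median -0.56), with summed counts of 131814 and 122466 at EB5 and 51082 and 92856 at EB8. Ribosomal protein genes gave no call among 26, and all 26 had a negative change, with a median of -0.23. The 12 tested mitochondrial transcripts gave none either, all 12 had a positive change (median 0.45), and their sums were 330601 and 409540.0 at EB5 and 679639 and 340024 at EB8, with the EB8 replicates far apart. Of 14 p53 targets and 13 immediate early genes none was called (medians -0.08 and -0.69), and 2 and 3 were lower with the block.

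The same stage change was set against that of the libraries labelled KO, which shows where it differs with genotype. The difference of the changes, KO minus WT, was called in 126 genes, of which 16 were positive and 110 negative, 0.0992% and 0.682% of the tested genes. With the replicate block it was called in 48 and 179 genes. Without WT EB8 replicate 2 only 13 calls were left, without KO EB5 replicate 2 only 19, and between 42 and 74 without any other of the 8 libraries. The KO replicates stood apart on 2 chromosomes. On chromosome X the median gene of KO replicate 2 lay 0.41 and 0.42 above its mean over the 16 libraries at EB5 and EB8, and that of replicate 1 was at -0.17 and -0.24. On chromosome 11 replicate 1 stood at 0.19 and 0.28 and replicate 2 at -0.02 and -0.06. With chromosomes 8, 11 and X left out, 129 differences were called among 13320 genes, 19 positive and 110 negative. Of the 110 genes with a negative difference 102 were called higher at EB8 in WT, and of the 16 with a positive one 15 were called lower, in counts that share the WT libraries. Robo3, at 15.2 and 14.5 at EB5 and 63.3 and 30.9 at EB8 in KO, had a difference of -8.09 ± 0.98 (adjusted p = 0.00488). Neurog2, Scrt2 and Myt1 had -7.89, -7.89 and -7.84. Of the 25 pan-neuronal genes 11 had a negative difference, of the 29 postmitotic factors 7, and of the proneural and the synapse genes 4 each. Tubb3 had 1168 and 1270.3 counts at EB5 and 555 and 272 at EB8 in KO (difference -5.38 ± 0.38, adjusted p = 8.54e-05).

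Positive differences included Nodal and Foxh1. Nodal stood at 1698 and 1672 at EB5 and 819.8 and 963 at EB8 in KO (difference 3.74 ± 0.44, adjusted p = 0.00488), and Foxh1 at 1071 and 953 at EB5 and 487 and 512 at EB8 in KO (4.04 ± 0.49, adjusted p = 0.00488). Mobp, a myelin gene, went from 207 and 180.1 to 14.7 and 10.6 in WT and from 960.4 and 1084 to 742 and 409 in KO (2.96 ± 0.50, adjusted p = 0.019). Ecm1, a secreted matrix protein, rose in WT from 103 and 86.8 to 463 and 623 and went from 79.6 and 183 to 4669 and 7937 in KO (3.15 ± 0.65, adjusted p = 0.0486). In the RA pathway Cyp26b1 went from 383 and 438 to 4198 and 4334 in KO, a difference of -1.76 ± 1.11 that did not pass (adjusted p = 0.722). Among the Hox genes the difference was called for Hoxb8 and Hoxb9, with -5.95 and -6.29. In KO, Hoxb8 had 417 and 127 counts at EB5 and 429 and 178 at EB8, and Hoxb9 643 and 317 at EB5 and 997 and 599.7 at EB8. At EB5 both genes were thus higher in KO than in WT, where Hoxb8 had 79.0 and 39.5 counts and Hoxb9 36.7 and 59.3. Both lie on chromosome 11, which held 4 of the 126 calls, and Dcx, Pou3f4 and Sox3 are among the 4 calls on chromosome X. The part of the chromosome levels in these single differences was not tested.

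**Figure D5:**
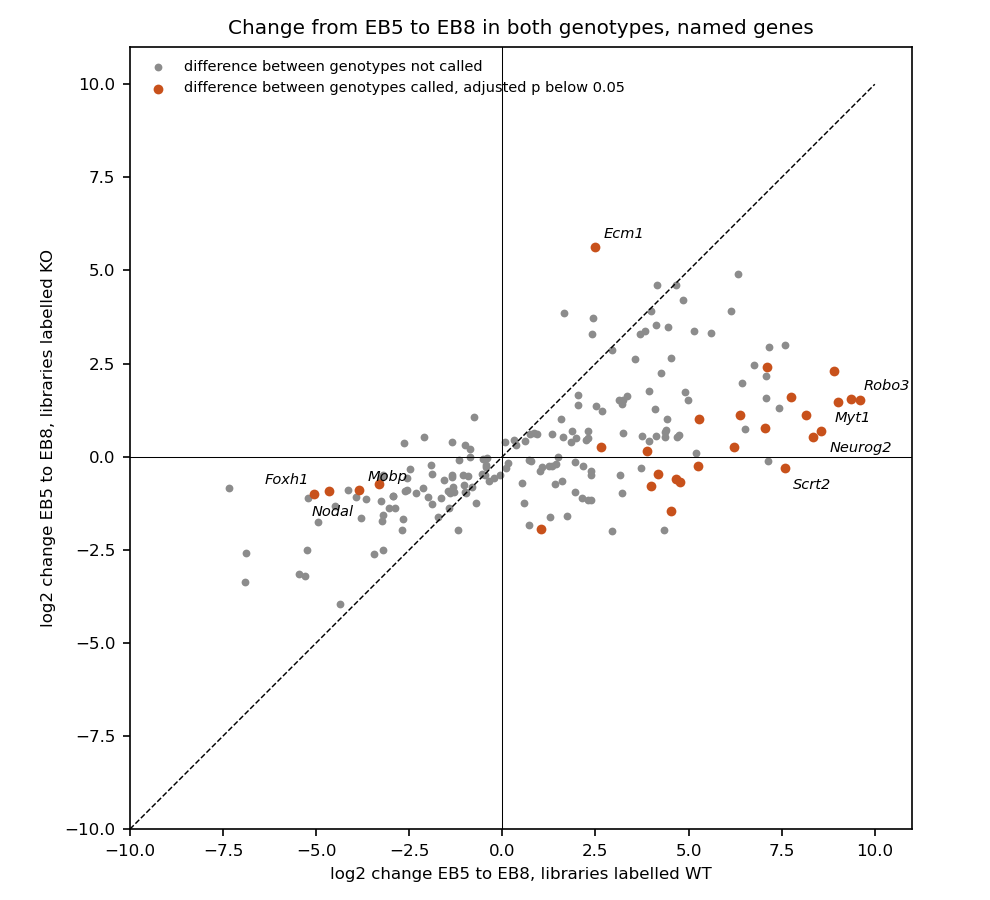
Log2 change from EB5 to EB8 in the libraries labelled WT (horizontal) and labelled KO (vertical) for the 197 genes picked by the naming rule, without those chosen after their values were seen, and with the dashed line at equal change. The 28 of them whose difference between genotypes was called are coloured, and most lie on the right below the line, such as Robo3 and Neurog2. The rule picks genes largely by their WT change, which also enters the difference, so this placement adds no support.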

How the data were processed

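RNA was prepared from ES cells and embryoid bodies with the TruSeq v2 poly-A kit, which does not mark strand, and sequenced as single 54-base reads. Per the submitters' processing notes, reads were processed with CASAVA, TopHat2 2.0.10, HTSeq 0.5.4p3 and DESeq2 1.0.19 on mm9. The deposited values are a signal, read counts per gene that the authors divided by DESeq2 size factors. Whole reads were recovered from 100% of them in each of the 16 libraries, within 0.01 of a read, which gave the depth (22442118 to 40711826 reads).

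Genes with a mean of at least 10 over the 16 libraries (16124 of 27807) were tested on log2(value + 1) with limma 3.58.1 in R 4.3.3, with a mean for each of 8 groups of 2 libraries and a trended empirical Bayes variance, and p-values were adjusted by Benjamini-Hochberg over all tested genes with a threshold of 0.05. Counts near 0 limit the precision of low genes, and the intervals of read ratios cover counting error only. The labels give a replicate number and no animal or culture, so p-values measure the spread between these samples. Deviations from the group means of same-numbered WT samples correlated across genes by 0.61 (EB4 and EB5), 0.52 (EB4 and EB8) and 0.57 (EB5 and EB8), so the numbers were taken to pair the WT embryoid bodies, and a fit with the replicate as a block on these libraries was run beside the main one. The WT ES libraries did not pair with the WT embryoid bodies (-0.05 to -0.18), while same-numbered KO samples correlated by 0.23 to 0.42 over all stages.

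Alternatives were another pseudocount, filter or scaling, other sets of libraries, each library left out, edgeR 4.0.16 and DESeq2 1.42.0 on the recovered reads, and, chosen after seeing the data, leaving out chromosome 8 or chromosomes 8, 11 and X. The main limma comparison, without the block, was tested on simulated data that held no pairing of replicates. Among changed genes with a mean of at least 100 counts it recovered 26% of 2-fold and 84% of 4-fold changes. A gene that was not called can thus still have changed. The other fits were not tested in this way. The comparison and the 36 gene lists were chosen with earlier results of these data known. Genes were named by a rule, namely the 12 largest rises and 12 largest falls among called genes whose libraries did not overlap and whose higher group had at least 100 counts in both libraries, up to 5 calls in each direction and up to 3 uncalled genes per list, and the 4 largest positive and negative differences between genotypes. Genes outside the rule are marked in the text as chosen after their values were seen, and some genes that the rule names are not reported here. Sox1, Slc18a3 and Disp1 were not matched by name, and 204 identifiers were not in GENCODE M1, from which the mm9 coordinates came. Promoter windows came from RefSeq (GRCm38.p6).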

Additional observations from a re-analysis of the deposited data

Results flagged for a closer look

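The change from EB5 to EB8 differed between the libraries labelled WT and those labelled KO by the test of the difference itself (limma, KO change minus WT change on the log2 scale, adjusted p below 0.05) in 16 genes with a positive and 110 with a negative difference. The values below are for the genes named in the report, and with 2 libraries per group no test for a stray library was made.

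Among genes of neuronal fate, the difference was -8.09 for Robo3, -7.89 for Scrt2, -7.89 for Neurog2, -7.84 for Myt1 and -7.56 for St18. It was -6.36 for Lbx1, -5.21 for Onecut1, -5.24 for Ebf2 and -3.71 for Ebf3. Neurod1 had -4.48, Gadd45g -3.66 and Id4 -3.50. In the Notch pathway the ligand gene Dll1 had -2.96 and the target Nrarp -3.50. The helix-loop-helix factor Bhlhe23 had -6.13. In each of these genes the change was the lower one in KO.

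Genes of the neuronal cytoskeleton and adhesion gave -6.62 for Dcx, -5.38 for Tubb3, -5.46 for Tagln3, -4.78 for Cntn2, -3.15 for Mtap2, -3.74 for Ina and -2.79 for Rtn1. The RNA-binding genes Elavl3, Elavl4, Srrm4, Celf3 and Celf4 had -5.06, -3.74, -5.25, -4.26 and -2.72. Of the synapse and transmitter genes, Slc6a5 had -7.03, Snap25 -4.65, Syt4 -5.14 and Gad1 -4.18, and Ppp1r17 had -7.82. Where a group had almost no reads, as for Ppp1r17, the fitted value depends on the added count.

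Among progenitor and patterning genes, Pou3f3 had -4.69, Pou3f4 -5.25, Sox3 -3.28, Msx3 -5.98, Shh -5.52, Hoxb8 -5.95 and Hoxb9 -6.29. Positive differences were 4.04 for Foxh1, 3.74 for Nodal, 2.58 for the pluripotency gene L1td1, 3.15 for Ecm1 and 2.96 for Mobp. Of these 5 genes Ecm1 alone rose in WT.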

How the results depend on the processing

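Depth was alike in the 4 compared libraries (24409504 to 27685306 reads) and ran from 22442118 to 40711826 over all 16, and 2 libraries per stage, low counts at EB5 and the choice of which libraries enter the fit limit what can be called. Of the 193 called genes named in the text none changed direction under any alternative run, and between 0 and 86 lost their call, with 29 lost at a pseudocount of 0.1, 28 without a filter on low values, 11 with edgeR and 2 with DESeq2.

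The 1683 genes called between WT EB5 and WT EB8 (938 higher, 745 lower) became 949 (581 and 368) with the 8 WT libraries alone, 650 (388 and 262) at an adjusted p below 0.01, and 1169 (798 and 371) with the 4 compared libraries alone, 969 of them shared with the 1683. With the replicate block on the WT embryoid bodies the count was 2649 (1460 and 1189), and with the block on all 16 libraries 2361. Leaving out 1 of the 4 compared libraries gave 556 to 1203 calls, 343 to 654 higher and 213 to 549 lower, and leaving out a WT EB4 or KO embryoid body library of EB5 or EB8 gave 1486 to 1717. The calls in the gene lists went from 186 to 109 at an adjusted p below 0.01 and to between 101 and 145 with 1 of the 4 compared libraries left out. For the first day of RA, 601 calls became 348 with the 8 WT libraries, 917 and 1043 with the replicate block on all libraries and on the WT embryoid bodies, 1094 with DESeq2, 249 at an adjusted p below 0.01 and 197 to 536 with 1 of the WT EB4 and EB5 libraries left out. The 126 differences between genotypes became 225 at a pseudocount of 5, 227 with the replicate block, 488 with DESeq2, 16 at an adjusted p below 0.01 and 13 to 74 with 1 of the 8 EB5 and EB8 libraries left out. Beside the genes given with it in the report, the block changed the call of no named gene. The cause of these moves was not tested, apart from the fewer samples of the reduced fits and the stricter threshold.

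Among the uncalled genes a few log2 changes turned sign. With 1 of the 4 compared libraries left out they ran from -0.26 to 4.33 for Cdkn1c, -0.10 to 1.28 for Cdx2, -1.13 to 0.32 for Col1a1, -0.19 to 0.33 for Cyp26a1, -0.57 to 0.13 for Nes, -0.19 to 0.91 for Pax6, -0.19 to 0.38 for Pcna, -1.17 to 0.11 for Slc17a7 and -1.24 to 0.31 for Sox17. Upper-quartile rescaling gave -0.00565 for Cyp26a1 and quantile normalisation 0.0141 for Mki67.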
